A study of Mus musculus with 18 samples.

Results

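The comparison described here is that of mouse oocytes that reached metaphase II in vitro in the presence of MSC (MSC-IVM-MII-6wk, 3 oocytes) with oocytes that did so without them (IVM-MII-6wk, 3 oocytes). Both groups came from wild-type C57BL/6 mice aged 6 weeks. The libraries were chosen by their source label alone, which gave 6 of the 18 libraries of the series, and every gene of the deposited tables entered. The co-culture lasted overnight according to the series design. The labels do not spell out MSC, and they name neither the animals, the cultures nor the origin of the co-cultured cells. Germinal vesicle oocytes of the same age (GV-6wk, 3 oocytes) and the equivalent metaphase II oocytes from mice aged 12 months (MSC-IVM-MII-12m and IVM-MII-12m, 3 oocytes each) are given only where they bear on this comparison. After gentle lysis of a single oocyte the nucleus was removed by centrifugation, and the supernatant was used for SMART-seq2, which primes on poly(A) tails and makes full-length cDNA.

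A fully grown oocyte hardly transcribes. Meiotic maturation therefore runs on mRNA stored during growth, of which some is activated by lengthening of its poly(A) tail while much is deadenylated and cleared. In the follicle, cumulus cells supply the oocyte with pyruvate, sterols and signals through gap junctions, and co-culture with somatic cells has been studied as a partial substitute during maturation in vitro. Because the library chemistry selects poly(A) tails, a transcript that was deadenylated and one that was degraded look alike in these data.

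Cells are not replicates, and with no animal or culture named each group of 3 oocytes counted as 1 sample. No test, p-value or standard error was therefore derived, and a value after ± is the SD of a group's 3 oocytes. CPM are counts relative to the TMM-scaled library total, a difference is the mean log2(CPM + 1) of MSC-IVM-MII-6wk minus that of IVM-MII-6wk, and a gene is counted as higher or lower where this difference reached 1 in size, which is 2-fold. Fewer copies per oocyte and a smaller share of the library cannot be told apart on this scale. The 6 libraries held 3080516 to 4287123 counts, and 12037 genes passed the filter on low counts.

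Several libraries stood apart before any group was compared. The sample titles carry a prefix that the labels do not explain: oocyte 1 of both groups carried Y01, and oocytes 2 and 3 of both groups carried Y03. Mos, the kinase that holds metaphase II arrest, was at 641 CPM in the co-cultured and 1258 CPM in the other Y01 oocyte, and at 1.00 to 8.61 CPM in the 4 Y03 oocytes. IVM-MII-6wk oocyte 2 held transcripts, some of them markers of somatic cells, that the other 5 oocytes lacked. Spp1, osteopontin, was at 2337 CPM in it and at 0 in the other 5, Nupr1 at 171 CPM against 0, Cd63 at 87.7 CPM against 0, and Gja1, connexin 43 of granulosa cell junctions, reached 7.75 CPM against 0. By a rule chosen after the values were seen (at least 20 CPM and at least 8 times the value of every other metaphase II library, both with 1 added), 11 genes marked this oocyte and 0 or 1 gene marked each of the other 5. The sum over 30 markers of mesenchymal stromal cells was 44.7, 44.7 and 25.5 CPM in MSC-IVM-MII-6wk oocytes, against 16, 2403 and 20.2 CPM in IVM-MII-6wk oocytes, of which nearly all in oocyte 2 was Spp1. The defining markers Thy1, Eng, Pdgfra, Pdgfrb, Col1a1, Col1a2, Col3a1, Vim and Lum had 0 counts in all 6 libraries, where a count of 0 allows up to 3 counts per library, and Dcn had 2 counts in MSC-IVM-MII-6wk oocyte 1 and 6 in IVM-MII-6wk oocyte 1. Neither the origin of Spp1 and the other transcripts that set IVM-MII-6wk oocyte 2 apart nor their part in the results was tested. Cumulus and granulosa markers summed to 929, 228 and 268 CPM in MSC-IVM-MII-6wk oocytes and to between 163 and 1383 CPM in IVM-MII-6wk oocytes, mostly Serpine2, with Amh, Foxl2 and Fshr at 0 throughout. Blood and immune markers summed to 347, 423 and 412 CPM in MSC-IVM-MII-6wk and to 415, 258 and 351 CPM in IVM-MII-6wk oocytes. Nearly all of this was Ms4a1, known as CD20 of B cells, at 324, 401 and 406 CPM against 409, 237 and 329 CPM, while Ptprc, Itgam, Adgre1, Lyz2 and Hbb-bs were at 0 in all 6. Oocyte genes were present in every library: Gdf9 lay at 12625, 1619 and 1349 CPM in MSC-IVM-MII-6wk and at 17328, 571 and 1576 CPM in IVM-MII-6wk oocytes.

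More genes were detected with co-culture when oocytes of like title prefix were set side by side. MSC-IVM-MII-6wk oocytes had at least 1 count for 13117, 10104 and 10120 genes, against 11808, 9214 and 9036 genes in IVM-MII-6wk oocytes. Within Y01 the depths were nearly equal (4287123 and 4271400 counts), and within Y03 the totals of the co-cultured oocytes (3105405 and 3148140) lay between those of the others (3080516 and 3504660). The order was the same at a minimum of 10 counts, with 9474, 7594 and 7463 genes against 8423, 7166 and 7152 genes. The mitochondrial genome gave 3.03%, 8.65% and 7.66% of all counts in MSC-IVM-MII-6wk and 3.22%, 11.71% and 10.09% in IVM-MII-6wk oocytes, so each co-cultured oocyte lay below those of its prefix. Taken without the prefix, both measures overlapped between the groups.

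**Figure D1:**
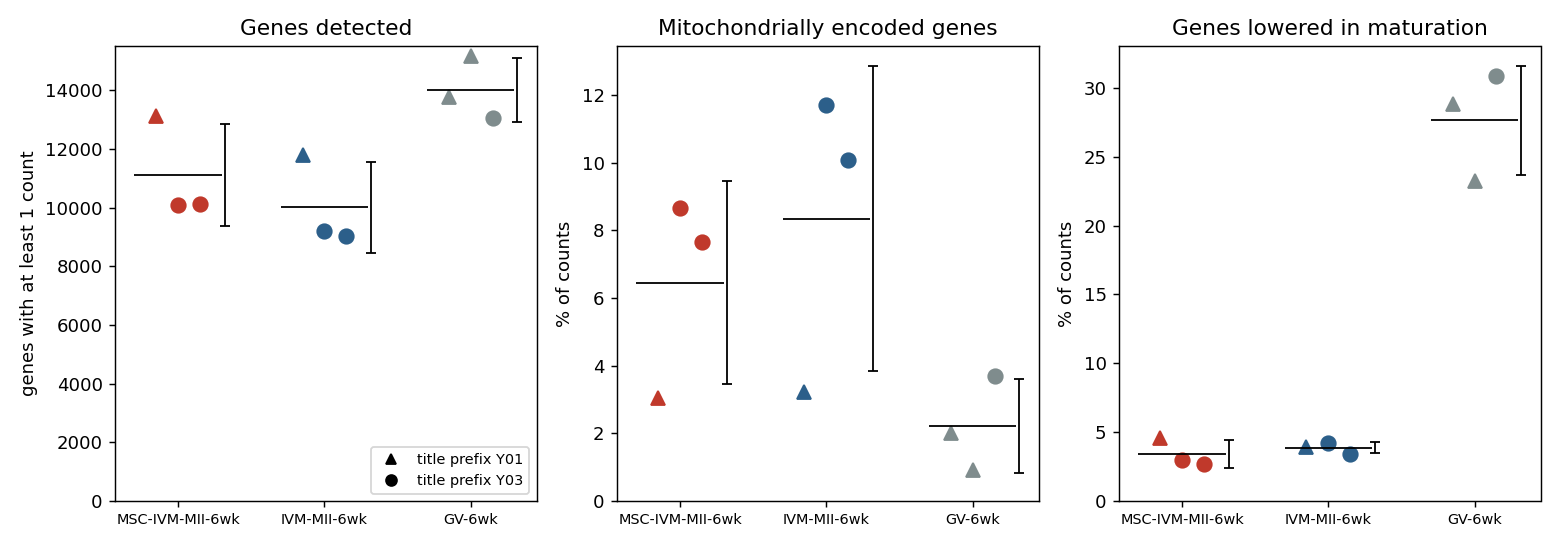
Genes with at least 1 count, share of counts from mitochondrially encoded genes, and share of counts from genes lowered in maturation (chosen in the libraries of 12 months), for each oocyte of MSC-IVM-MII-6wk, IVM-MII-6wk and GV-6wk. Triangles are Y01 titles, circles Y03 titles, lines the mean and bars the SD over 3 oocytes; the 2 triangles of the metaphase II groups lie apart from the circles in the first 2 panels, at 13117 and 11808 genes and at 3.03% and 3.22%.

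The difference between the groups was of the size of that between single oocytes. Between a co-cultured and another oocyte of the same prefix, 30.0% to 44.5% of the 12037 genes differed at least 2-fold (5 pairs). Between oocytes of one group and one prefix the share was 35.7% with co-culture and 38.9% without it (1 pair each). Pairs that crossed the prefixes differed more, at 47.0% to 59.2% between the groups and 45.7% to 58.5% within a group (4 pairs each). The closest pair of all 15 was the co-cultured and the other Y01 oocyte, with a Spearman correlation across genes of 0.891.

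**Figure D2:**
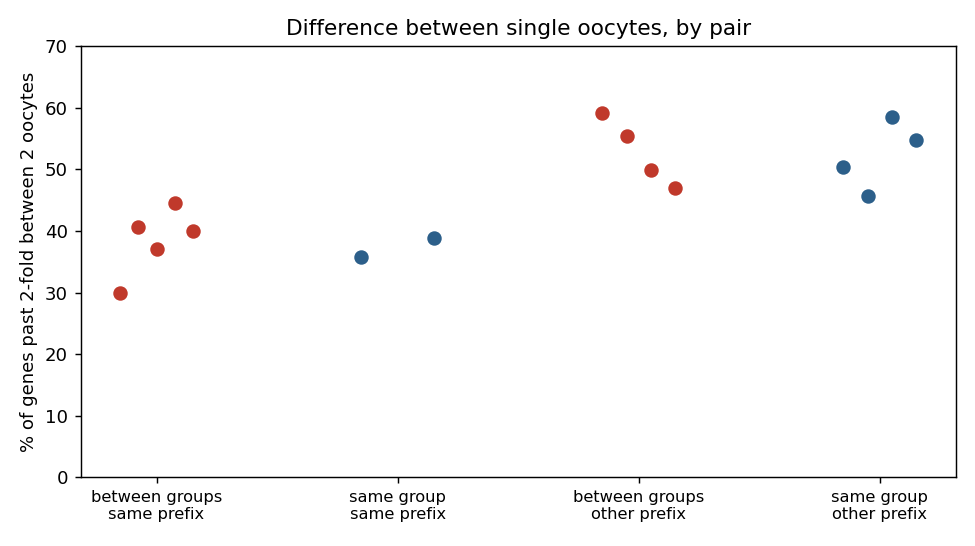
Share of the 12037 genes that differed at least 2-fold on the log2(CPM + 1) scale between 2 single oocytes, for each of the 15 pairs, split by group and title prefix. Pairs with the same prefix lie at 30.0% to 44.5%, pairs across prefixes at 45.7% to 59.2%, whether or not the 2 oocytes shared a group.

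Between the group means, 1954 genes (16.2%) were higher and 628 (5.22%) lower with co-culture, and at a 4-fold limit 270 (2.24%) were higher and 49 (0.407%) lower. The median difference over all genes was 0.20 (0.04 within Y01 and 0.11 within Y03), which is the level that the lists below are read against, and 61.1% of genes had a difference above 0, 36.6% one below 0 and 2.32% none. On the authors' TPM, 1395 genes were higher and 507 lower. Fewer of the abundant genes passed the limit. Genes were sorted by the larger of the 2 group means, so the level is that of the group where the gene was high. Of 1596 genes at 100 CPM or more, 74 (4.64%) were higher and 21 (1.32%) lower. Of 2790 genes at 20 to 100 CPM, 486 (17.4%) were higher and 95 (3.41%) lower. At 5 to 20 CPM, 869 (25.8%) of 3374 genes were higher and 310 (9.19%) lower, and below 5 CPM, where the added 1 in log2(CPM + 1) weighs most, 525 (12.3%) and 202 (4.72%) of 4277. Without IVM-MII-6wk oocyte 2, the one that held Spp1, 1789 genes were higher and 844 lower. Without IVM-MII-6wk oocyte 1, the numbers were 3244 and 1211, and without MSC-IVM-MII-6wk oocyte 1 they were 1823 and 1222, which leaves a Y01 oocyte in 1 group only.

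The title prefixes gave different genes. Within Y01 (1 oocyte against 1), 2573 genes (21.4%) were higher and 1038 (8.62%) lower. Within Y03 (2 against 2), 2702 (22.4%) were higher and 1309 (10.9%) lower. In both prefixes 516 genes (4.29%) were higher and 143 (1.19%) lower, while 612 (5.08%) passed 2-fold in opposite ways. Every co-cultured oocyte lay above the other oocytes of its prefix in 1131 genes (9.40%) and below them in 557 (4.63%), and 745 (6.19%) and 219 (1.82%) of all genes also passed 2-fold between the group means. Across the 12037 genes the Y01 difference and the Y03 difference, which share no library, had a Pearson correlation of -0.065 and a Spearman correlation of -0.075. The genes with higher values in Y01 had shorter transcripts, with a median of 2395 bases, and those lower in Y01 had a median of 3148 bases. In Y03 the order was turned, at 3596 bases for higher and 2440 bases for lower genes, and the median of all genes was 2824 bases. Across 10819 genes with a coding transcript, the Spearman correlation of the difference with transcript length was -0.153 in Y01 and 0.222 in Y03. Over all 6 oocytes it was 0.14. Whether transcript length is a cause of the difference of either prefix was not tested.

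**Figure D3:**
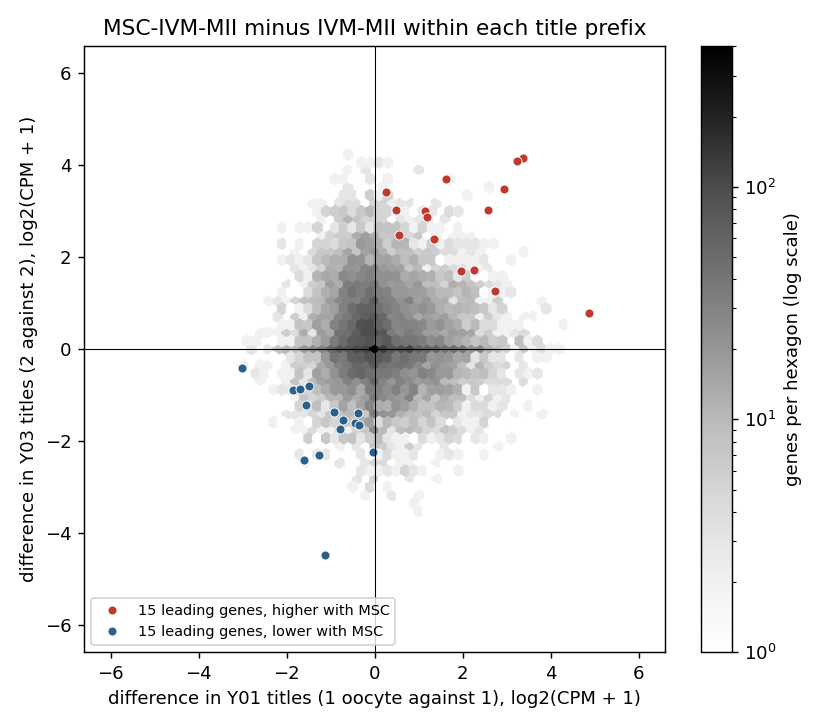
Difference between MSC-IVM-MII-6wk and IVM-MII-6wk oocytes on the log2(CPM + 1) scale within Y01 titles (horizontal, 1 oocyte against 1) and within Y03 titles (vertical, 2 against 2), with genes binned in hexagons on a log grey scale. The cloud has no diagonal trend (Pearson correlation -0.065), and the 15 leading higher genes (red) and 15 leading lower genes (blue) lie in the corners where both prefixes go the same way because the rule that chose them asks for groups that do not overlap.

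In 465 genes (3.86%) all 3 co-cultured oocytes lay above all 3 others, and in 182 genes (1.51%) they lay below. Of these, 124 and 62 averaged 20 CPM or more in the group with the higher level and had a protein-coding symbol that is no predicted gene, clone or pseudogene, and the 15 largest differences each way are described here. That the groups do not overlap is how these genes were chosen and no finding. Positions are on GRCm38 from GENCODE release M21.

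Cphx2, one of a small family of near-identical homeobox genes of the mouse oocyte and early embryo (chr14:26081516-26096127), led the higher genes with 69.5, 40 and 18.9 CPM in MSC-IVM-MII-6wk oocytes, against 5.84, 1.55 and 0 CPM in IVM-MII-6wk oocytes. Its means were 42.8 ± 25.4 and 2.46 ± 3.03 CPM, a difference of 3.90, and reads shared with its copies make the value less certain. The authors' TPM gave the same picture, with 66.2, 26.7 and 16.6 TPM for the co-cultured and 7.19, 4.96 and 0 TPM for the other oocytes. Nsdhl, a dehydrogenase of cholesterol synthesis (chrX:72918557-72958514), was at 42.4, 24.3 and 10.7 CPM in MSC-IVM-MII-6wk and at 3.60, 0 and 0 CPM in IVM-MII-6wk oocytes. GV-6wk oocytes held 43.6 ± 4.27 CPM of it, beside means of 25.8 ± 15.9 CPM in MSC-IVM-MII-6wk and 1.20 ± 2.08 CPM in IVM-MII-6wk oocytes. Wdr82, a subunit of the SETD1 histone methyltransferase complexes (chr9:106170928-106191139), was at 112, 52.0 and 121 CPM in MSC-IVM-MII-6wk and 28.1, 24.2 and 23.6 CPM in IVM-MII-6wk oocytes, a difference of 1.78. Dclk2, a doublecortin-like kinase of microtubules (chr3:86786151-86920852), was at 119, 165 and 179 CPM in MSC-IVM-MII-6wk and 80.7, 18.6 and 47.3 CPM in IVM-MII-6wk oocytes. The difference was 1.96 in Y01 and 1.69 in Y03 for Wdr82, and 0.56 and 2.49 for Dclk2, where the choice of genes whose groups do not overlap fixes the sign.

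Itgb3, the integrin β3 subunit (chr11:104608000-104670476), was nearly constant with co-culture, at 19.6, 22.3 and 22.0 CPM, against 2.47, 7.13 and 0 CPM without it. Its difference of 2.87 stood beside one of -1.65 between co-cultured oocytes of 12 months (9.68 ± 5.15 CPM) and the others of that age (30.4 ± 4.38 CPM). Mfsd2a, a transporter of lysophosphatidylcholine with long-chain fatty acids, was at 28.4, 30.7 and 32 CPM in MSC-IVM-MII-6wk and at 0, 15.2 and 20.8 CPM in IVM-MII-6wk oocytes. Its difference of 2.15 came to 0.74 without IVM-MII-6wk oocyte 1. Psmf1, the proteasome regulator PI31, was at 12.4, 22.0 and 30.0 CPM against 8.54, 0.62 and 5.69 CPM, and at 573 CPM on average in GV-6wk oocytes, so both metaphase II groups lay far below the level before maturation. Zswim1, a zinc finger gene, was at 27.0, 29.7 and 15.5 CPM against 11.2, 2.48 and 1.71 CPM. Kctd10, an adaptor of CUL3 ubiquitin ligases, was at 20.9, 46.3 and 20.3 CPM against 3.60, 18.6 and 3.70 CPM. The remaining 6 were the glycosyltransferase-like B3gntl1, the helicase Ddx41, the serine hydrolase-like Serhl, Lrrc47, the calcium channel subunit Cacna2d3 and Pradc1, with differences of 3.30, 3.02, 2.39, 2.37, 2.04 and 1.76. Leaving out 1 oocyte brought Cacna2d3 to 0.87 (without IVM-MII-6wk oocyte 3) and Pradc1 to 0.96 (without IVM-MII-6wk oocyte 1), below the 2-fold limit, and without IVM-MII-6wk oocyte 2 Lrrc47 and Psmf1 came to 1.41 each.

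Lmbrd1, which exports cobalamin from lysosomes (chr1:24678630-24766301), led the lower genes with 11.6, 3 and 0 CPM in MSC-IVM-MII-6wk and 26.5, 27.3 and 70.3 CPM in IVM-MII-6wk oocytes, a difference of -3.37. Tpp1, a lysosomal tripeptidyl peptidase (chr7:105744811-105752235), was at 17.9, 9.34 and 3.79 CPM against 31.5, 26.3 and 19.4 CPM. Gemin8, a subunit of the SMN complex that assembles spliceosomal particles (chrX:166170454-166190512), was at 8.01, 17.3 and 1.03 CPM against 26.3, 34.1 and 29.3 CPM. Bud13, a splicing factor of the RES complex, was at 22.5, 15.7 and 2.76 CPM against 23.1, 32.9 and 39.9 CPM, so that in Y01 its difference was -0.04. Lsm5, of the LSM rings that bind U6 RNA and decaying mRNA, was at 7.80, 21.7 and 21.4 CPM against 70.6, 34.1 and 24.8 CPM, and here most of the difference of -1.29 came from Y01 (-3.02) and less from Y03 (-0.42). Nfyb, a subunit of the CCAAT-binding factor NF-Y (chr10:82748701-82764144), was at 47.2, 46.7 and 23.1 CPM against 90.8, 94.8 and 80.0 CPM. Git2, a GTPase-activating protein for ARF (chr5:114727407-114775517), was at 12.4, 12.0 and 7.92 CPM against 21.1, 18.6 and 49.5 CPM. Thg1l, which adds a guanosine to histidine tRNA, was at 11.6, 4.33 and 9.64 CPM against 15.1, 15.5 and 33.0 CPM. Nans, a synthase of sialic acid, was at 9.06, 9 and 9.30 CPM against 12.1, 43.1 and 15.4 CPM, and its difference of -1.06 came to -0.54 without IVM-MII-6wk oocyte 2. The other 6 (Hdhd2, Ndrg3, Ccdc86, Zfp931, Umad1 and Gmeb1) had differences of -1.95, -1.33, -1.22, -1.20, -1.14 and -1.04. With 1 oocyte left out, Lmbrd1, Gemin8 and Hdhd2 stayed below -1 in every case, at -2.43, -1.26 and -1.22 or lower, the values without MSC-IVM-MII-6wk oocyte 3. The other 12 came to between -0.99 and -0.54 in at least 1 case. For Bud13, Tpp1, Nfyb and Ccdc86 the smallest difference was the one without MSC-IVM-MII-6wk oocyte 3 and for Ndrg3, Lsm5, Zfp931, Umad1 and Gmeb1 the one without its oocyte 1, while Thg1l turned on its oocyte 2 and Git2 on IVM-MII-6wk oocyte 3.

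**Figure D4:**
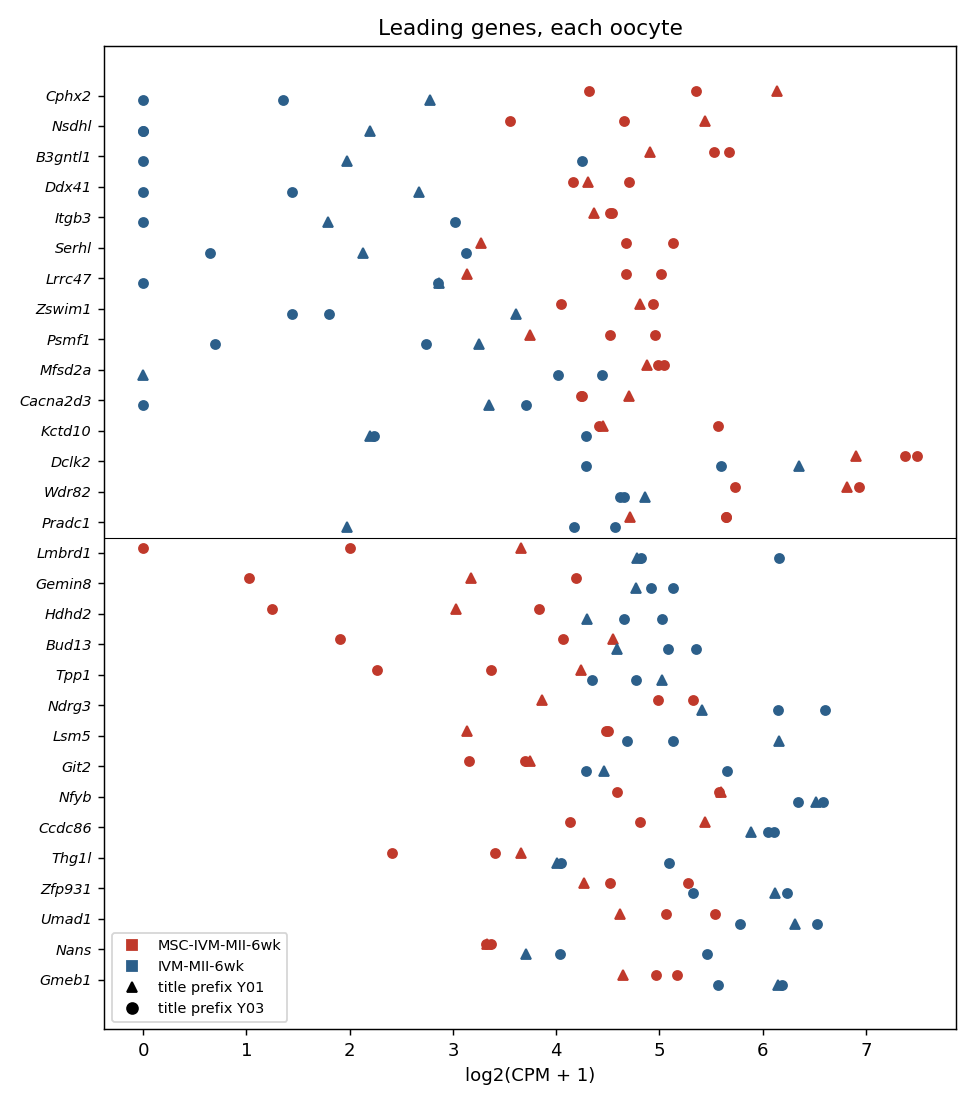
Level of the 30 leading genes on the log2(CPM + 1) scale in each MSC-IVM-MII-6wk (red) and IVM-MII-6wk (blue) oocyte, with Y01 titles as triangles and Y03 titles as circles; higher genes are above the line and lower genes below it. The gap between the groups is wide for Cphx2 and Nsdhl (differences of 3.90 and 3.82) and narrow for Bud13, where the Y01 oocytes had 22.5 and 23.1 CPM.

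The cytoplasmic polyadenylation element is the signal, bound by CPEB, through which stored mRNA gains poly(A) during maturation, and it lies close to the end of the 3′ UTR. The last 100 bases of the annotated 3′ UTR were searched on the sense strand for TTTTAT or TTTTAAT. Of the 30 leading genes 27 had a 3′ UTR of at least 100 bases, and 3 of them held the element: Wdr82 among the higher and Gemin8 and Git2 among the lower genes. The sites are shown because they are the leading genes' only matches, 5′ to 3′ in the transcripts of GENCODE release M21, with the element in capitals.
Wdr82: gtaaacaggaTTTTATggtttacagt
Gemin8: ttcaataaaaTTTTATttgtaaaaaa
Git2: tatttaatatTTTTATcttgattttc
Over all genes measured, 19.8% of 9986 with such a 3′ UTR held a match, as did 19.8% of the 1713 higher genes and 19.7% of the 503 lower genes. Within Y01 the shares were 12.7% of higher and 22.8% of lower genes, and within Y03 they were 21.1% and 16.4%. A match is a description of the letters and does not show that a site was used.

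The 12-month libraries gave the same genes an independent reading, since they share no library with the 6-week groups. There, MSC-IVM-MII-12m oocytes had higher values than IVM-MII-12m oocytes in 42.4% of all genes, and in 3 of the 15 leading higher genes (B3gntl1, Zswim1 and Dclk2, with 12-month differences of 1.11, 0.99 and 0.29). All 3 co-cultured oocytes lay above all 3 others at 12 months in 1 of the 15, Zswim1, and below in 1, Itgb3, where 2.63% and 3.99% of all genes did so. Lower values at 12 months were found in 54.8% of all genes and in 6 of the 15 leading lower genes (Gemin8, Hdhd2, Tpp1, Ndrg3, Umad1 and Nans), and Tpp1 was the one that did not overlap between the groups there either, with a difference of -2.16. Of the 1954 genes higher at 6 weeks, 16.5% were higher and 19.8% lower past 2-fold at 12 months, against 10.3% and 15.2% of all genes. Across all genes the 2 differences had a Pearson correlation of 0.014 and a Spearman correlation of 0.024. No title prefix is shared between the ages, so an age difference and a prefix difference cannot be told apart.

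Genes that fall or rise in maturation were defined in the 12-month libraries as those at least 4-fold lower (2476 genes) or higher (374 genes) in IVM-MII-12m than in GV-12m oocytes. At 6 weeks the lowered set took 4.58%, 2.96% and 2.71% of the counts in MSC-IVM-MII-6wk, 3.92%, 4.23% and 3.43% in IVM-MII-6wk and 28.8%, 23.22% and 30.87% in GV-6wk oocytes. All 6 metaphase II oocytes lay far below the GV level, and the co-culture groups overlapped. Its median co-culture difference was 0.09, below that of all genes (0.20), with 0.51 in Y01 and 0.00 in Y03. The raised set took 15.7%, 19.53% and 20.23% of the counts in MSC-IVM-MII-6wk, 16.84%, 20.17% and 20.13% in IVM-MII-6wk and 3.92%, 4.91% and 4.14% in GV-6wk oocytes, with a median difference of 0.19.

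Of 30 lists of oocyte, metabolic, signalling and cell marker genes, 2 had a median at least 0.5 away from that of all genes. PI3K and AKT signalling carries growth factor and KIT signals in the oocyte and restrains FOXO3, which holds primordial follicles dormant. The list of PI3K, AKT, FOXO and mTOR genes had a median of 0.84. Of its 25 measured members 16 had higher and 8 lower values, beside 61.1% and 36.6% of all genes. Past 2-fold 10 were higher and 2 lower, limits that 16.2% and 5.22% of all genes passed. Pik3r1, a regulatory subunit of PI3K, was at 97.6, 40.3 and 36.5 CPM in MSC-IVM-MII-6wk and at 88.3, 4.65 and 10.2 CPM in IVM-MII-6wk oocytes. Pdpk1, the kinase that activates AKT, was at 140, 34.7 and 49.9 CPM against 146, 18.6 and 2.28 CPM. Foxo1, a transcription factor that AKT restrains, was at 234, 94.4 and 80.3 CPM against 252, 18.9 and 29.9 CPM. Deptor, an inhibitor of mTOR, was at 544, 211 and 297 CPM against 412, 121 and 93.4 CPM. In each of these 4 genes the Y03 oocytes with co-culture lay above those without, while in Y01 the differences were 0.14 for Pik3r1, -0.06 for Pdpk1, -0.11 for Foxo1 and 0.40 for Deptor. The median of the list was 1.22 in Y03 and -0.03 in Y01, 0.41 without MSC-IVM-MII-6wk oocyte 1, 0.47 without IVM-MII-6wk oocyte 2 or 3, and 0.46 on the authors' TPM.

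Mitochondrially encoded mRNAs, which encode subunits of the respiratory chain and ATP synthase and are transcribed from the mitochondrial genome, had a median of -0.33. Of 13 members 11 had lower values, beside 36.6% of all genes, and 1 (7.69%) was lower past 2-fold, beside 5.22% of all genes. mt-Atp6, a subunit of ATP synthase, was at 6475, 22648 and 23976 CPM in MSC-IVM-MII-6wk and at 7543, 34270 and 31040 CPM in IVM-MII-6wk oocytes. mt-Nd1, of complex I, was at 1351, 7631 and 5990 CPM against 2134, 8867 and 8903 CPM. mt-Atp8 was at 48.0, 259 and 185 CPM against 75.7, 411 and 269 CPM, and mt-Nd3 averaged 107 ± 64.2 CPM with co-culture and 167 ± 121 CPM without it. Only mt-Atp6, mt-Nd1 and mt-Atp8, 3 of the 13, had each co-cultured oocyte below those without co-culture of its prefix, as had 4.63% of all genes. In these 3 the groups overlapped because the Y01 oocytes of both were low. The median of the list was -0.32 in Y01 and -0.39 in Y03, and it turned to 0.29 without MSC-IVM-MII-6wk oocyte 1 and to 0.14 without IVM-MII-6wk oocyte 2, and was -0.96 without IVM-MII-6wk oocyte 1. At 12 months it was -0.02. Mitochondrial reads can be shared with nuclear copies, which the tables do not resolve.

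**Figure D5:**
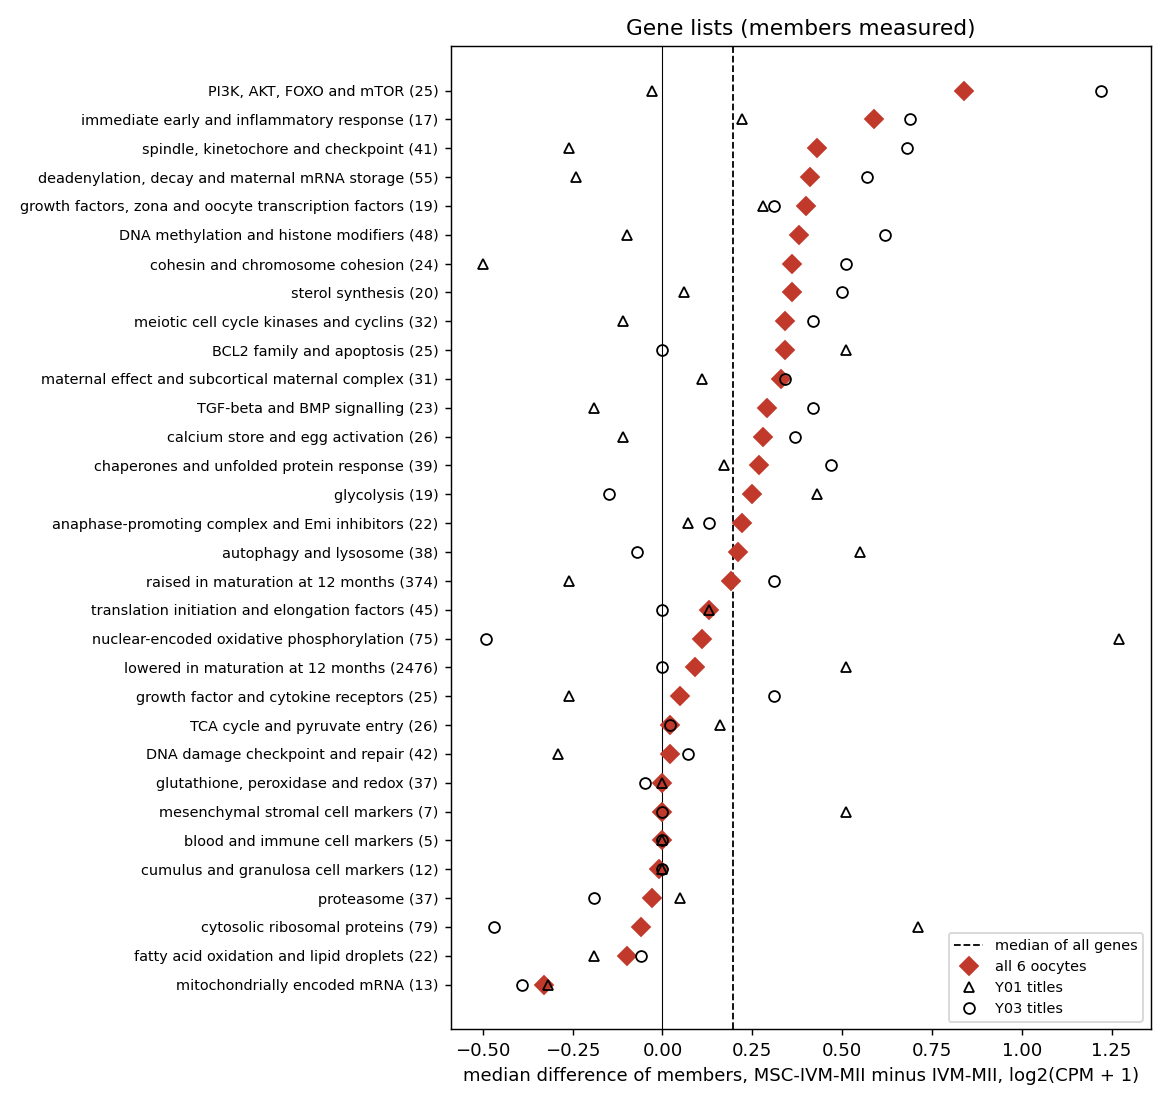
Median co-culture difference on the log2(CPM + 1) scale of the measured members of each list (number in brackets), over all 6 oocytes (diamonds), within Y01 titles (triangles) and within Y03 titles (circles); the dashed line is the median of all genes over the 6 oocytes, 0.20, which was 0.04 within Y01 and 0.11 within Y03. The signalling list lies at the top (0.84) and the mitochondrially encoded mRNAs at the bottom (-0.33), and for nuclear-encoded oxidative phosphorylation the prefixes lie on opposite sides, at 1.27 and -0.49.

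The other lists lay within 0.5 of all genes. With 1 oocyte left out, the median of 16 of the 30 lists and 2 maturation sets changed sign, and of 60 named genes past 2-fold 40 fell short of it in at least 1 case. Among oocyte growth factors, zona proteins and transcription factors, 18 of 19 had higher values, beside 61.1% of all genes. Only 4 of the 19 had each co-cultured oocyte above those without co-culture of its prefix, beside 9.40% of all genes. Of the 19, 2 (10.5%) were higher past 2-fold, beside 16.2% of all genes. The median was 0.40, and -0.07 without MSC-IVM-MII-6wk oocyte 1. Gja4, connexin 37 of the gap junctions between oocyte and cumulus, averaged 925 CPM in GV-6wk oocytes. It was at 84.9, 28.0 and 6.89 CPM in MSC-IVM-MII-6wk and at 25.8, 0 and 0.285 CPM in IVM-MII-6wk oocytes. Kit, the receptor for KIT ligand from granulosa cells, was at 72.1, 11.7 and 9.64 CPM against 53.7, 8.06 and 0.285 CPM. Zp1, of the zona pellucida, was at 699, 35.0 and 13.8 CPM against 52.8, 54.2 and 36.7 CPM, above within Y01 and below within Y03. Genes of maternal effect and the subcortical complex summed to 49341, 49744 and 58646 CPM in MSC-IVM-MII-6wk and to 51418, 33265 and 48163 CPM in IVM-MII-6wk oocytes. In this list 26 of 31 had higher values, beside 61.1% of all genes, and 2 (6.45%) were higher past 2-fold, beside 16.2%. Each co-cultured oocyte lay above the others of its prefix in 4 of the 31, beside 9.40% of all genes. Of that list Sall4, a transcription factor of the growing oocyte, was at 383, 28.7 and 41.7 CPM against 597, 3.10 and 10.2 CPM. Uhrf1, which brings DNMT1 to newly replicated DNA, was at 339, 127 and 179 CPM against 221, 53.9 and 95.4 CPM, with each co-cultured oocyte above the others of its prefix though the groups overlapped.

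Of 41 spindle, kinetochore and checkpoint genes 39 had higher values, beside 61.1% of all genes, and 3 (7.32%) passed 2-fold, beside 16.2% of all genes. Only 3 of the 41 had each co-cultured oocyte above those without co-culture of its prefix, beside 9.40% of all genes. The median of 0.43 was -0.26 in Y01 and 0.06 without IVM-MII-6wk oocyte 2. Kif20b, a mitotic kinesin, was at 413, 140 and 246 CPM in MSC-IVM-MII-6wk and at 508, 14.9 and 56.1 CPM in IVM-MII-6wk oocytes. Spc24, of the NDC80 complex that ties kinetochores to microtubules, was at 40.5, 14.0 and 10.3 CPM against 4.72, 5.89 and 7.69 CPM and did not overlap. Among 32 meiotic kinases and cyclins 23 had higher values, beside 61.1% of all genes, with a median of 0.34 and of -0.11 in Y01. Past 2-fold 5 (15.6%) were higher, close to the 16.2% of all genes. Pde3a, whose breakdown of cyclic AMP lets meiosis resume, was at 73.8, 11.0 and 4.82 CPM against 76.0, 0 and 0 CPM. Mastl, the kinase that restrains PP2A in M phase, was at 64.9, 71.0 and 117 CPM against 85.6, 0.31 and 96.2 CPM, so its difference of 1.89 rested on IVM-MII-6wk oocyte 2 and was -0.15 without it. Ppp2r1a, the scaffold subunit of PP2A, was at 208, 98.4 and 113 CPM against 196, 16.4 and 15.9 CPM. Genes of the anaphase-promoting complex and its inhibitors had a median of 0.22. Its ubiquitin-conjugating enzyme Ube2c was at 46.6, 28.3 and 24.8 CPM against 54.8, 29.1 and 1.99 CPM, and its subunit Cdc26 at 88.1, 23.3 and 23.4 CPM against 150, 30.1 and 67.2 CPM, lower within both prefixes. Cohesin genes had a median of 0.36 and of -0.02 without IVM-MII-6wk oocyte 2. The mitotic and meiotic kleisin Rad21 was at 26.3, 11.3 and 40.6 CPM against 57.8, 0 and 5.12 CPM, and its difference of 1.76 came to 0.35 without IVM-MII-6wk oocyte 2. Meiotic Smc1b was at 33.3, 27.7 and 44.1 CPM against 53.3, 3.41 and 23.1 CPM.

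Among 55 genes of deadenylation, decay and mRNA storage 40 had higher values (median 0.41), beside 61.1% of all genes. Past 2-fold 10 (18.2%) were higher and 4 (7.27%) lower, close to the shares of all genes. That median was 0.09 without IVM-MII-6wk oocyte 2 and -0.24 in Y01. Tob2, which recruits the CCR4-NOT deadenylase, was at 49.7, 23.7 and 23.4 CPM in MSC-IVM-MII-6wk and at 53.0, 4.65 and 0.854 CPM in IVM-MII-6wk oocytes. Btg1, of the same family, went the other way at 21.1, 3.67 and 1.03 CPM against 48.5, 8.37 and 9.68 CPM, lower within both prefixes. Translation factors had a median of 0.13, and the initiation factor Eif4b was at 16, 30.0 and 27.9 CPM against 7.64, 17.4 and 0.854 CPM. Ribosomal protein genes had a median of -0.06, with 2 of 79 (2.53%) higher and 9 (11.4%) lower past 2-fold, beside 16.2% and 5.22% of all genes. Their medians of 0.71 in Y01 and -0.47 in Y03 differed in sign, and without IVM-MII-6wk oocyte 2 the median was 0.22. Rpl32 was at 21.1, 13.3 and 9.99 CPM against 22.2, 31.6 and 30.7 CPM and did not overlap, while Rpl41 was at 285, 23.0 and 19.3 CPM against 27.0, 28.5 and 22.8 CPM. Reads of ribosomal protein genes can be shared with their many pseudogenes.

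The 75 nuclear-encoded genes of oxidative phosphorylation had a median of 0.11, of 1.27 in Y01 and of -0.49 in Y03. With 1 oocyte left out it ran from -0.27 (without IVM-MII-6wk oocyte 1) to 0.46 (without its oocyte 2). Ndufa11, of complex I, was at 93.1, 16.7 and 7.58 CPM in MSC-IVM-MII-6wk and at 6.29, 12.4 and 7.40 CPM in IVM-MII-6wk oocytes. In the tricarboxylic acid cycle (median 0.02) Mdh2, mitochondrial malate dehydrogenase, was at 12.2, 6.33 and 0 CPM against 8.76, 26.0 and 35.6 CPM. Glycolysis genes had a median of 0.25, of 0.43 in Y01 and of -0.15 in Y03. Of 19 members 1 (5.26%) was higher and 3 (15.8%) lower past 2-fold, beside 16.2% and 5.22% of all genes. Of the 3 lower genes, lactate dehydrogenase Ldha was at 0, 1.00 and 0 CPM against 2.47, 74.4 and 0 CPM, and enolase Eno1 at 51.4, 30.7 and 4.13 CPM against 45.8, 196 and 12.0 CPM. Their high value in both cases was that of IVM-MII-6wk oocyte 2, and without it the differences were -0.56 for Ldha and -0.27 for Eno1. GV-6wk oocytes held 32.4, 3.64 and 59.1 CPM of Ldha and 215, 157 and 207 CPM of Eno1. Bpgm, bisphosphoglycerate mutase, was the 1 member higher past 2-fold, at 4783, 3042 and 3645 CPM against 3550, 841 and 1906 CPM, and at 5235, 2195 and 2657 TPM against 3498, 610 and 1410 TPM. Each co-cultured oocyte lay above those of its prefix for Bpgm, whose difference of 1.07 came to 0.53 without IVM-MII-6wk oocyte 2 and whose 12-month difference was -0.70. Sterol synthesis genes had a median of 0.36 and of -0.04 without IVM-MII-6wk oocyte 2. Beside Nsdhl, Hsd17b7, a reductase of the same pathway, was at 145, 76.7 and 151 CPM against 117, 42.8 and 56.7 CPM.

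Redox genes had a median of 0.00, with 0 of 37 higher and 5 (13.5%, against 5.22% of all genes) lower past 2-fold. Heme oxygenase Hmox1 had a value in IVM-MII-6wk oocyte 2 alone (66.9 CPM, and 0 in the other 5), as had Spp1, Nupr1 and Cd63. Gclm, the regulatory subunit of the enzyme that starts glutathione synthesis, was at 37.7, 28.0 and 11.4 CPM in MSC-IVM-MII-6wk and at 73.7, 63.5 and 35.6 CPM in IVM-MII-6wk oocytes. It was lower within both prefixes, with overlap only across them, and its 12-month difference was 1.58. G6pdx, which supplies NADPH, was at 250, 199 and 75.1 CPM against 43.4, 153 and 121 CPM. Chaperone genes had a median of 0.27, and of -0.02 without MSC-IVM-MII-6wk oocyte 1. Their largest lower member was Dnajb14, a co-chaperone of the endoplasmic reticulum, at 147, 555 and 355 CPM against 354, 1117 and 732 CPM, with each co-cultured oocyte below the others of its prefix and a difference of -1.10, which was -0.57 without MSC-IVM-MII-6wk oocyte 1.

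Many receptors of signals from other cells had too few counts to be measured. Of 50 growth factor and cytokine receptor genes 25 passed the filter, with a median of 0.05 that ran to -0.52 without MSC-IVM-MII-6wk oocyte 1. Prlr, the prolactin receptor, was at 72.5, 10.7 and 20 CPM in MSC-IVM-MII-6wk and at 86.8, 0 and 0 CPM in IVM-MII-6wk oocytes, and Egfr, the receptor of epidermal growth factor, at 52.7, 22.0 and 7.92 CPM against 31.9, 43.4 and 0 CPM. The immediate early and inflammatory list had 14 of 17 members with higher values, beside 61.1% of all genes. Past 2-fold 5 were higher (29.4%, against 16.2% of all genes). Each co-cultured oocyte lay above the others of its prefix in 2 of the 17 and below them in 1, beside 9.40% and 4.63% of all genes. The list had a median of 0.59, of 0.22 in Y01 and of 0.69 in Y03. With 1 oocyte left out its median ran from 0.32 (without IVM-MII-6wk oocyte 3) to 1.00 (without its oocyte 1). Stat3, the transcription factor of interleukin-6 family signals, was at 120, 16.7 and 15.2 CPM against 130, 0 and 2.85 CPM. Nfkbia, the inhibitor that NF-κB induces, was lower within both prefixes, with means of 134 ± 45.6 CPM in MSC-IVM-MII-6wk and 191 ± 71.7 CPM in IVM-MII-6wk oocytes. TGF-beta and BMP genes had a median of 0.29, and the SMAD repressor Ski was at 52.1, 36.3 and 56.1 CPM against 36.6, 32.9 and 17.1 CPM. Of the apoptosis genes (median 0.34) the anti-apoptotic Bcl2l1 was at 31.8, 69.3 and 57.2 CPM against 6.29, 40.6 and 34.2 CPM, above within both prefixes.

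DNA methylation and histone modifier genes had 12 of 48 members higher and 0 lower past 2-fold, beside 16.2% and 5.22% of all genes, with a median of 0.38, of -0.10 in Y01, of 0.62 in Y03 and of 0.08 without IVM-MII-6wk oocyte 2. It was -0.02 without MSC-IVM-MII-6wk oocyte 1 and 1.08 without IVM-MII-6wk oocyte 1. Above within both prefixes were 8 of the 48, beside 9.40% of all genes. Kdm2b, a histone demethylase that recruits Polycomb to CpG islands, was at 66.4, 14.3 and 13.4 CPM in MSC-IVM-MII-6wk and at 33.5, 0 and 0 CPM in IVM-MII-6wk oocytes. Ezh1, a Polycomb methyltransferase, was at 30.8, 27.3 and 78.9 CPM against 28.5, 9.61 and 10.5 CPM. Prmt5, an arginine methyltransferase, was at 23.4, 20.7 and 32.7 CPM against 41.4, 5.58 and 1.42 CPM. Of the granulosa markers Cyp19a1, aromatase, was detected in 5 of 6 libraries, at 63.4, 47.7 and 39.6 CPM against 62.0, 0 and 29.6 CPM, with an average of 29.5 CPM in GV-6wk oocytes.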

How the data were processed

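Single oocytes were profiled as 18 SMART-seq2 libraries, of which the 6 compared were grouped by source label. The submitters' processing notes name the build GRCm38.p5 (mm10), TopHat2 2.1.1, Cufflinks, Trim Galore 0.4.5 and FastQC 0.11.8. Which tool counted reads, and with which annotation, is not given in the sources used here. The deposited expected counts per gene (47069 genes, per the file headers) are estimates that divide reads among genes, so values of near-identical genes are less certain. TPM, as deposited by the authors, are relative to gene length and to the library, and served as an alternative. FPKM were not used.

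Expected counts were rounded, scaled by TMM and filtered with filterByExpr by group over all 18 libraries in edgeR 4.0.16 (R 4.3.3), which left 12037 genes. DESeq2 1.42.0 gave size factors as an alternative. Both served for scaling only, because 1 sample a group allows no test. Differences use log2(CPM + 1), which understates those of weakly expressed genes. Other steps ran in Python 3.11.15 with Matplotlib 3.10.9, SciPy 1.17.1, pandas 2.3.3 and NumPy 2.4.6, and the computation was checked on simulated counts. Symbols, positions, transcript lengths and 3′ UTRs came from GENCODE release M21, which matched 46574 of 47069 identifiers.

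The 30 lists held 1099 symbols, of which 1097 matched. Members and lists were chosen with earlier results of these data known. Named genes had at least 20 CPM on average in the higher group, no overlap between the groups and a protein-coding symbol that is no predicted gene, clone or pseudogene, and the 15 largest differences each way were taken. Members with the largest differences and at least 20 CPM were added, up to 4 for each list with a median 0.5 or more from all genes and up to 3 for others, of which the text names a part. Genes of single libraries that stood apart and defining markers were named after their values were seen. Oocytes are numbered in accession order, which pairs nothing. Reads carry no molecular identifiers, so the limit of 3 counts behind a value of 0 covers counting error only, and depth (3080516 to 4287123 counts) limits the precision of low values.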

Additional observations from a re-analysis of the deposited data

Results flagged for a closer look

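The co-culture difference of Itgb3, the integrin β3 subunit, was drawn out because it pointed opposite ways at the 2 ages in every oocyte. The 77 named genes were searched for such a pattern. At 6 weeks all 3 MSC-IVM-MII-6wk oocytes lay above all 3 IVM-MII-6wk oocytes, with a difference of 2.87. That part was fixed by the choice of the leading genes and is no finding. At 12 months all 3 MSC-IVM-MII-12m oocytes lay below all 3 IVM-MII-12m oocytes, as in 3.99% of all genes, with a difference of -1.65. The 6-week difference minus the 12-month difference was 4.52 on the log2(CPM + 1) scale. Whether the 2 differences are unequal beyond the spread between oocytes was not tested. The title prefixes are not shared between the ages.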

How the results depend on the processing

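The 1954 higher genes became 466 with a pseudocount of 5, 3112 with one of 0.25 and 1288 when scaling and filter used the 6 libraries only, and 1789 to 3244 when 1 oocyte was left out. The 628 lower genes became 116 and 1113 with those pseudocounts, 1038 within Y01 and 1309 within Y03, and 667 to 1222 with 1 oocyte left out. DESeq2 size factors moved the median of all genes from 0.20 to 0.10, and the share of higher genes among those past 2-fold, 75.7%, to 68.9%; it was 59.9% without MSC-IVM-MII-6wk oocyte 1. The median of the signalling list was -0.03 within Y01 and 0.41 to 1.43 with 1 oocyte left out, and that of mitochondrially encoded mRNAs -0.96 to 0.29. The sets lowered and raised in maturation had medians of 0.51 and -0.26 within Y01, and of 0.00 to 0.18 and 0.10 to 0.29 with 1 oocyte left out. Within Y01, 13 named genes past 2-fold turned: Sall4 (-0.64), Pde3a (-0.04), Mastl (-0.39), Kif20b (-0.30), Rad21 (-1.10), Tob2 (-0.09), Pdpk1 (-0.06), Foxo1 (-0.11), Prlr (-0.26), Stat3 (-0.11) and Prmt5 (-0.80) to lower, and Mdh2 (0.44) and Eno1 (0.16) to higher. Of those short of 2-fold, Ube2c (-0.23) and Smc1b (-0.66) turned within Y01, and Zp1 (-0.98), G6pdx (-0.16) and Rpl41 (-0.26) within Y03. With 1 oocyte left out, Kit ran from -0.05 (without IVM-MII-6wk oocyte 3) to 2.65, Sall4 from -0.06 to 3.53 and Mastl from -0.15 to 2.95 (both lowest without IVM-MII-6wk oocyte 2). Another 8 below 2-fold turned in at least 1 such case: Zp1 (-1.06), Rpl41 (-0.29), mt-Atp8 (0.11), mt-Nd1 (0.29) and mt-Atp6 (0.22) without MSC-IVM-MII-6wk oocyte 1, Smc1b (-0.03) without IVM-MII-6wk oocyte 2, and Egfr (-0.78) and Ube2c (-0.31) without its oocyte 3. The alternatives that kept all 6 oocytes turned 0 of the 77 named genes and 8 of the 32 lists and sets, all with medians of -0.10 to 0.11. The cause was not tested. No paired analysis was possible because the labels give no replicate number that the groups share, so values within each title prefix stand in its place. Leaving out a Y01 oocyte of 1 group also unbalances the prefixes. With 3 oocytes and 1 sample a group, spread between animals or cultures was not measured.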
